A study of Mus musculus with 6 samples.

Results

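*Cwc22* and 6 copies of it that lie in a cluster on mouse chromosome 2 (*Gm13691*, *Gm13693*, *Gm13694*, *Gm13696*, *Gm13697* and *Gm13698*) were followed in RNA-Seq libraries of coronary endothelial cells (ECs). These 7 genes, found by symbol, were 7 of the 55416 genes in the count table. They were picked with their values in *ControlΔEC* and *Wt1KOΔEC* libraries already known, so the contrast between the genotypes is given for them as a description, without a test. The 6 copies had the same count in each of the 6 libraries and were treated as 1 measurement, which leaves 2 distinct measurements among the 7 genes.

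The ECs came from ventricles of E15.5 embryos, 3 libraries per genotype. *ControlΔEC* embryos were *Pdgfb*(CreERT2/+); *Wt1*(+/+); *R26*(mTmG/+), and *Wt1KOΔEC* embryos were *Pdgfb*(CreERT2/+); *Wt1*(loxP/loxP); *R26*(mTmG/+). Both genotypes therefore carried the inducible Cre, which is expressed under *Pdgfb* in endothelium, and the Cre reporter, and all dams were given daily tamoxifen (75 mg/kg, E11.5-13.5). Only cells in which Cre had switched the reporter to membrane GFP were sorted. Both genotypes were littermates from parents that each carried 1 floxed and 1 wild-type *Wt1* allele, and the labels call the libraries biological replicates without tying each one to an embryo or litter, so the spread between them may be partly technical.

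CWC22 is a spliceosome protein. Its MIF4G domain binds the RNA helicase eIF4A3 and brings it to the splicing machinery, where eIF4A3 becomes the base of the exon junction complex that is left on spliced mRNA. That complex marks where introns were removed and is read by mRNA export, translation and nonsense-mediated decay factors. The part of chromosome 2 around the copies is known for variation in copy number of *Cwc22* sequence between mouse strains, and the reference genome shows only the C57BL/6J arrangement.

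The copies have the structure of spliced mRNA that was inserted back into the genome. On GRCm39 (GENCODE vM39), *Cwc22* (ENSMUSG00000027014.15) lies on the minus strand at chr2:77711503-77776736, and its principal transcript has 20 exons, 3299 bases and 903 codons. The copies lie 6.01 Mb further along, on the plus strand between 83786037 and 83823389, as single exons of 2493 bases with 830 codons each. A stretch of 3054 bases at the first of them, chr2:83785949-83789002, matched bases 244 to 3299 of the spliced *Cwc22* transcript, all of it after exon 1 (243 bases), with the intervening introns missing and a run of 7 A after the match. The cluster holds 7 such repeats, one every 5810 bases. *Gm13695*, which lies between *Gm13693* and *Gm13696*, is not among the 6 and is given for comparison. GENCODE annotates the 7 repeats as protein-coding and names them *Cwc22rt1* to *Cwc22rt7*, whereas the RefSeq table lists them as pseudogenes.

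How well counts can be told apart depends on these sequences. The transcripts of the 6 copies were identical base for base, so no read from within them could distinguish them. Against *Cwc22*, the copy transcript had 39 mismatches over 2477 aligned bases (98.4% identity), 2 insertions of 16 bases in all and 1 deletion of 3 bases. Its longest stretch without a difference was 344 bases. The reads were 51 bases long from each end. Of the 2443 windows of 51 bases in a copy, 1135 (46.5%) were also present in *Cwc22*, and the shared windows made up 34.9% of those of the *Cwc22* transcript. A read from such a window carries by itself no base that separates *Cwc22* from the copies, and the authors' counting with RSEM divides such reads by estimate.

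**Figure D1:**
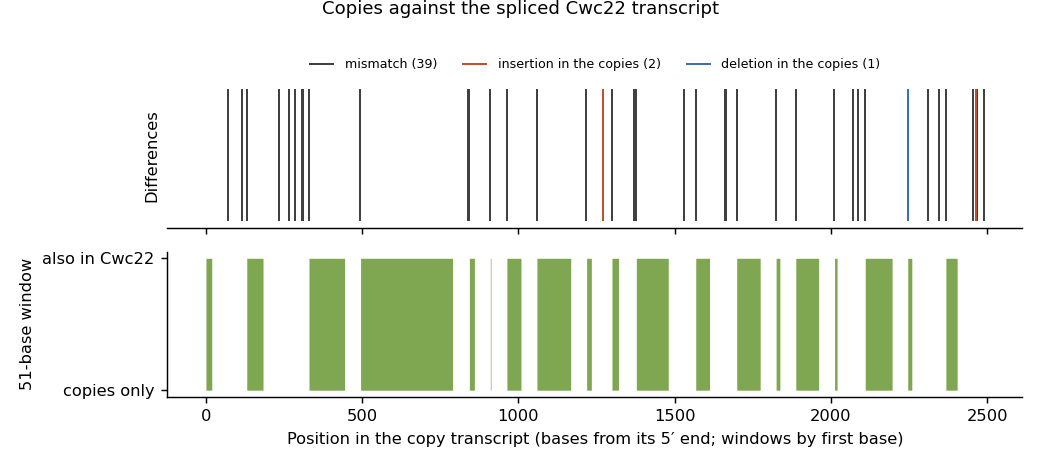
Differences between the copy transcript and the spliced Cwc22 transcript by position in the copy, in bases (upper: 39 mismatches, 2 insertions, 1 deletion), and the 51-base windows that also occur in Cwc22 (lower, green, by first base). The green windows, 1135 of 2443, lie in blocks between the differences, the widest in the stretch of 344 bases without any.

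A tract of glutamate codons shows the longest difference and is printed because it also holds the base that sets *Gm13695* apart. The copies have 15 more bases there than *Cwc22*. In the first pair, capitals mark the 15 added bases, as placed by the alignment within a repetitive tract, and the substitution C1299A (base of *Cwc22*, position counted from 1 at the 5′ end of the copy transcript, base of the copy). The *Gm13698* window is chr2:83787276-83787356 on the plus strand, and the *Cwc22* window is chr2:77747410-77747475 on the minus strand, within 1 exon (GRCm39).
Gm13698: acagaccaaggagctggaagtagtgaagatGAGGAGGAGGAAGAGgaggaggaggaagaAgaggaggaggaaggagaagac
Cwc22: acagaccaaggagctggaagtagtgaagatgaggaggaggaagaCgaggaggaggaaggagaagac

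Over their 2493 bases, *Gm13695* and the 6 copies differed at 1 position, A1280T (6 copies, then *Gm13695*), marked in capitals in the same stretch of both, at chr2:83798896-83798976 for *Gm13695*. Only 51 of 2443 windows (2.09%) cover that base.
Gm13695: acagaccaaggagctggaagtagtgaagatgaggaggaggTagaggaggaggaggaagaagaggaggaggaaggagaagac
Gm13698: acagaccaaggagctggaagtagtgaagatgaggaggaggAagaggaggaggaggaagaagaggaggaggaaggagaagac

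Near the 5′ end, single substitutions separate the copies from *Cwc22* and a read over them can be assigned. In the following coding stretch, capitals mark C70T, C116T and G131A. The *Gm13698* window is chr2:83786097-83786216, and the *Cwc22* bases lie between 77761805 and 77763077 on the minus strand, with 1 exon junction inside.
Gm13698: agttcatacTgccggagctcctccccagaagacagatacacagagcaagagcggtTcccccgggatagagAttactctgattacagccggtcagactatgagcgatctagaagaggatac
Cwc22: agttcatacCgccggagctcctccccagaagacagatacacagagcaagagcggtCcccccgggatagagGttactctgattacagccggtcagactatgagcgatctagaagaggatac

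The libraries held between 26037324 and 44779020 counts. *Wt1*, the gene deleted, was at 110 to 149 CPM (the count scaled to the TMM-adjusted library size) in *ControlΔEC* and at 14.0 to 21.3 CPM in *Wt1KOΔEC* libraries. All 8 endothelial markers had counts, with summed levels of 4541 to 5769 CPM in *ControlΔEC* and 4688 to 5405 CPM in *Wt1KOΔEC*. Markers of other cardiac cells differed in range between the genotypes without overlap: the 4 fibroblast markers summed to 300 to 455 CPM in *ControlΔEC* and 510 to 675 CPM in *Wt1KOΔEC*, the 4 epicardial markers to 2.77 to 7.02 and 12.5 to 36.9 CPM, the 4 mural markers to 142 to 316 and 97.0 to 104 CPM, and the 3 macrophage markers to 145 to 443 and 78.0 to 119 CPM. The 6 cardiomyocyte markers (102 to 139 and 72.3 to 177 CPM) and the 3 erythroid markers (3998 to 8975 and 2977 to 5053 CPM) overlapped. In bulk libraries, fewer cells of a type and less RNA per cell cannot be told apart, and the part of these cells in the values of *Cwc22* was not tested.

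*Cwc22* was the abundant member in every library. It had 3425, 11624 and 6034 counts in the *ControlΔEC* libraries and 1969, 1182 and 960 counts in the *Wt1KOΔEC* libraries. As levels, these were 76.6, 236 and 209 CPM against 50.4, 33.2 and 38.0 CPM. Every *ControlΔEC* library was above every *Wt1KOΔEC* library, but *ControlΔEC* replicate 1 was close to the deleted libraries, 1.52-fold above the highest of them. The range within *ControlΔEC* was 3.08-fold, and within *Wt1KOΔEC* 1.52-fold. The mean level was 174 ± 85.3 CPM (SD, n = 3) in *ControlΔEC* and 40.5 ± 8.87 CPM (SD, n = 3) in *Wt1KOΔEC*, a ratio of 4.29. It was 5.49 without *ControlΔEC* replicate 1 and 3.53 without *ControlΔEC* replicate 2, the widest values when 1 library was left out. The fitted difference was a log2 fold change of -2.10 (SE 0.38, edgeR).

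Each of the 6 copies had 72, 258 and 218 counts in the *ControlΔEC* libraries and 4, 0 and 0 counts in the *Wt1KOΔEC* libraries. Summed over the copies this made 432, 1548 and 1308 counts, or levels of 9.66, 31.4 and 45.4 CPM, in *ControlΔEC*. In *Wt1KOΔEC* the sum was 24 counts (0.614 CPM) in replicate 1 and 0 counts in replicates 2 and 3, where the floor of 3 counts would be 0.0843 and 0.119 CPM. The genotypes did not overlap, and the lowest *ControlΔEC* library was 15.7-fold above the highest *Wt1KOΔEC* library. Within *ControlΔEC* the range was 4.70-fold, again with replicate 1 as the lowest library, and the order of replicates 2 and 3 was opposite to that of *Cwc22*.

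The mean of the summed copies was 28.8 ± 18 CPM (SD, n = 3) in *ControlΔEC* and 0.205 ± 0.355 CPM (SD, n = 3) in *Wt1KOΔEC*. The ratio of these means, 141, rests on the 24 counts of *Wt1KOΔEC* replicate 1. Without that library the copies were at least 284-fold lower in *Wt1KOΔEC*, with 3 counts per library as the floor, and without any other single library the ratio was 93.8 to 187. The fitted log2 fold change of a copy, -6.89 (SE 1.41, edgeR), depends on how counts of 0 are handled. No test outcome is given for the 7 genes, which were picked on this contrast. Of the 16296 genes tested, edgeR called 12 (0.0736%, adjusted p below 0.05 with a log2 fold change beyond 0.58 in either direction). All 7 members had every *ControlΔEC* library above every *Wt1KOΔEC* library, as 8.97% of tested genes had. Because the members were selected on this contrast, that share does not bear on them.

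**Figure D2:**
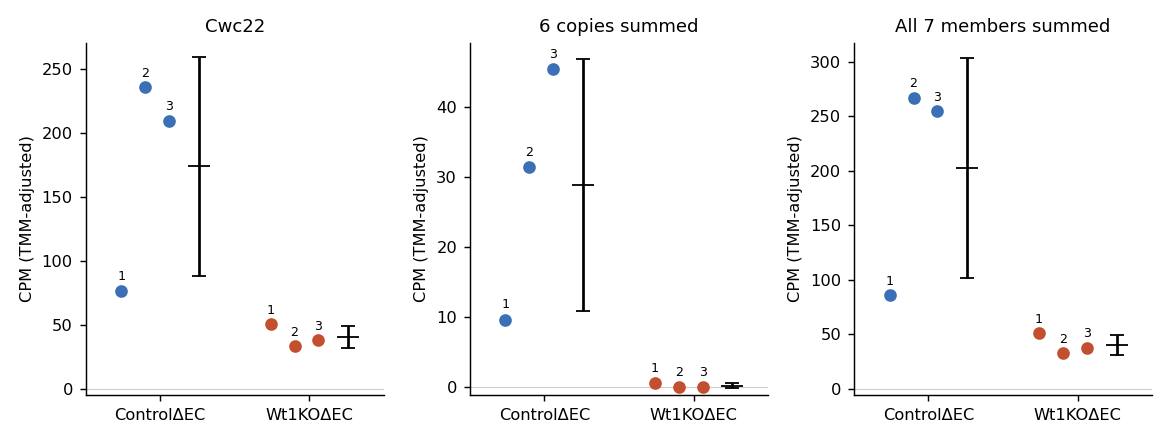
Level in each library, in CPM on linear axes, of Cwc22, of the 6 copies summed and of all 7 genes summed, with replicate numbers over the points and mean ± SD (n = 3) in black beside each genotype. For all 3 quantities each ControlΔEC library lies above each Wt1KOΔEC library, and ControlΔEC replicate 1 is the lowest of its genotype.

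*Gm13695*, the remaining repeat, had 50 counts (1.73 CPM) in *ControlΔEC* replicate 3 and 0 counts in the other 5 libraries. It did not pass the filter on low counts. The base at position 1280 is the only one that separates it from the 6 copies, so its counts and theirs can be exchanged by the counting.

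The share of the members' counts that fell on the copies was compared because it does not depend on library size. In *ControlΔEC* it was 11.2% (95% exact Clopper-Pearson interval 10.2 to 12.2), 11.8% (11.2 to 12.3) and 17.8% (16.9 to 18.7). In *Wt1KOΔEC* it was 1.20% (0.773 to 1.79) in replicate 1. Replicates 2 and 3 had 0 of 1182 and 0 of 960 counts on the copies, with upper bounds of the same exact interval at 0.312% and 0.384% (the floor of 3 counts is 0.254% and 0.313%). The intervals and limits cover counting error only, since PCR reads are not independent molecules and shared reads were divided by estimate. Replicates 1 and 2 of *ControlΔEC* had like shares although their *Cwc22* levels differed 3.08-fold, and replicate 3 stood above both.

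**Figure D3:**
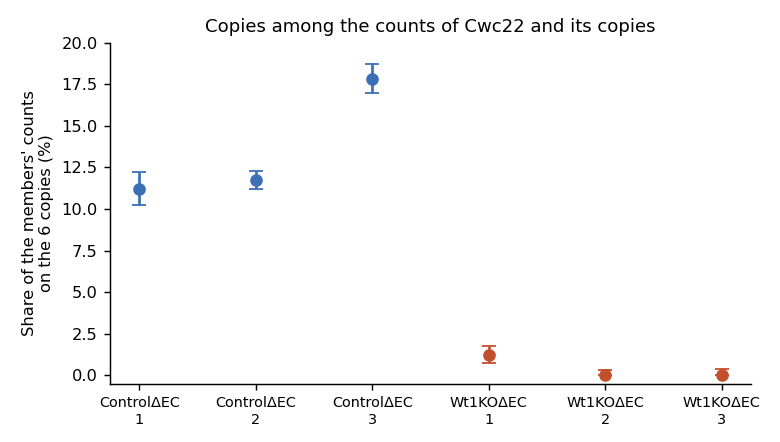
Share of the counts of Cwc22 and its 6 copies that was assigned to the copies, in percent, by library, with 95% exact binomial intervals. The 3 ControlΔEC libraries lie between 11.2% and 17.8%, and the 3 Wt1KOΔEC libraries between 0% and 1.20%.

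Summing *Cwc22* and the copies gives a quantity that does not change when reads are moved between them. The sum was 86.2, 267 and 255 CPM in *ControlΔEC* and 51.01, 33.2 and 38.0 CPM in *Wt1KOΔEC*. The means were 203 ± 101 and 40.7 ± 9.22 CPM (SD, n = 3 each), a ratio of 4.98. The nearest libraries of the genotypes were 1.69-fold apart, less than the 3.10-fold range within *ControlΔEC*.

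Per length, *Cwc22* was the higher in *ControlΔEC*, at 52.7 CPM per kb of its principal transcript against 11.6 CPM per kb for the 6 copies summed over 2493 bases, a ratio of 4.56. Over the union of all exons in the 46 annotated *Cwc22* transcripts (13973 bases) its level was 12.4 CPM per kb and the ratio 1.08, so the order of these levels is uncertain. In order of level in CPM, *Cwc22* in *ControlΔEC* came first, followed by *Cwc22* in *Wt1KOΔEC*, the summed copies in *ControlΔEC* and the copies in *Wt1KOΔEC*. *Cwc22* in *Wt1KOΔEC* and the copies in *ControlΔEC* did not differ beyond their spread (33.2 to 50.4 and 9.66 to 45.4 CPM).

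The library preparation did not keep strand. *Gm13727*, a noncoding gene that overlaps the 3′ end of *Cwc22*, had 0 counts in all 6 libraries. *Gm74691* and *Gm74688*, which overlap *Cwc22* on the other strand in GENCODE vM39, were not in the count table, so any reads from them could have been counted as *Cwc22*.

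Partners of CWC22 were then compared between the genotypes, from lists of named genes. No gene of the exon junction complex list, of 13 tested, was called by edgeR or by DESeq2, the alternative test. Over all genes, edgeR called 0.0736% and DESeq2 3.68%. *Eif4a3*, the helicase that CWC22 delivers, was at 258, 188 and 232 CPM in *ControlΔEC* and 273, 247 and 252 CPM in *Wt1KOΔEC* libraries. These ranges overlapped, and its log2 fold change was 0.19 (SE 0.16, edgeR adjusted p = 0.715). The other core subunits had log2 fold changes of 0.22 (*Rbm8a*, SE 0.17), 0.33 (*Magoh*, SE 0.27), 0.50 (*Magohb*, SE 0.46) and -0.20 (*Casc3*, SE 0.22). *Magoh* and *Magohb* are near-identical paralogs whose counts may be split by estimate.

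Of the same list, *Ddx39b*, an mRNA export helicase, was the only gene with an unadjusted p under 0.05 in edgeR, as 13.1% of all genes had. It was at 167, 173 and 172 CPM in *ControlΔEC* and at 221, 215 and 234 CPM in *Wt1KOΔEC*, without overlap, and its log2 fold change of 0.39 (SE 0.14) did not pass (edgeR adjusted p = 0.288). *Alyref*, an export adaptor, had a log2 fold change of 0.39 (SE 0.23). The median log2 fold change of the list was 0.22, beside -0.03 over all genes tested, and 3 of the 13 genes did not overlap between genotypes, as 19.3% of all genes did.

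None of the 10 nonsense-mediated decay genes was called by edgeR or DESeq2 (0.0736% and 3.68% of all genes). Of the 10, 1 had an unadjusted edgeR p under 0.05 (13.1% of all genes). That gene was *Smg1*, the kinase that phosphorylates UPF1, at 40.01, 53.0 and 51.3 CPM in *ControlΔEC* and 37.4, 34.2 and 34.6 CPM in *Wt1KOΔEC*. Its log2 fold change was -0.44 (SE 0.19, edgeR adjusted p = 0.362). *Upf2*, another MIF4G protein, had a log2 fold change of -0.54 (SE 0.25), and *Upf1*, the central helicase of the pathway, of -0.66 (SE 0.43). The median of the list was -0.22, with 8 of 10 genes below 0, and 2 of the 10 did not overlap (19.3% of all genes).

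None of the 30 spliceosome genes was called by edgeR (0.0736% of all genes). DESeq2 called 1 (3.68% of all genes), also the only one with an unadjusted edgeR p under 0.05 (13.1% of all genes). This was *Srrm2*, a scaffold of nuclear speckles, at 160, 243 and 172 CPM in *ControlΔEC* and 105, 129 and 110 CPM in *Wt1KOΔEC*, without overlap. Its log2 fold change was -0.74 (SE 0.19, edgeR adjusted p = 0.209, DESeq2 adjusted p = 0.0123). The genes that share with *Cwc22* a name from the yeast Cef1 complex had log2 fold changes of 0.13 (*Cwc15*, SE 0.16), -0.07 (*Cwc25*, SE 0.30) and -0.08 (*Cwc27*, SE 0.32). The values were -0.14 (SE 0.19) for the helicase *Dhx16* and 0.19 (SE 0.20) for *Prpf8*, the core of the catalytic centre. *Prpf19* (0.61, SE 0.27) and *Cdc40* (-0.41, SE 0.19) were the next largest after *Srrm2* among genes of at least 10 CPM, and neither passed. The median of the list was 0.06, and 4 of the 30 genes did not overlap (19.3% of all genes).

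Of 10 genes for other MIF4G proteins and eIF4A helicases, none was called by edgeR or DESeq2 (0.0736% and 3.68% of all genes). An unadjusted edgeR p under 0.05 was found for 2 of them (13.1% of all genes). *Paip1*, which couples poly(A)-binding protein to translation initiation, was at 34.0, 27.9 and 28.9 CPM in *ControlΔEC* and 7.93, 6.60 and 24.3 CPM in *Wt1KOΔEC*. Replicate 3 of *Wt1KOΔEC* was close to the *ControlΔEC* libraries, and the log2 fold change of -1.23 (SE 0.46) did not pass (edgeR adjusted p = 0.309). *Eif4g3*, a translation initiation scaffold, had a log2 fold change of -0.68 (SE 0.28, edgeR adjusted p = 0.359), and *Nom1*, a nucleolar MIF4G protein, of -0.37 (SE 0.29). The median of the list was 0.03, with 5 genes on either side of 0, and 4 of the 10 did not overlap (19.3% of all genes).

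**Figure D4:**
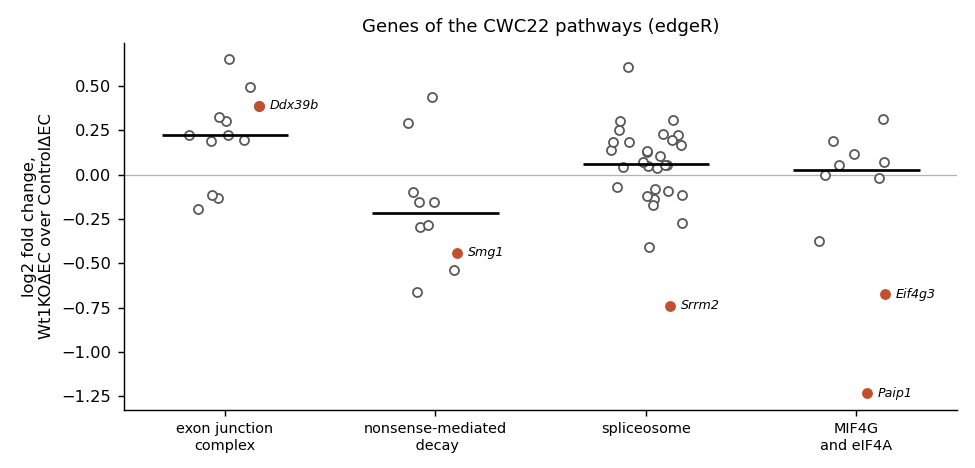
Log2 fold change of each gene (Wt1KOΔEC over ControlΔEC, edgeR) in the 4 lists, spread sideways so that points can be seen, with the list median as a black line. Filled, named points had an unadjusted p under 0.05 (1, 1, 1 and 2 genes), and no gene passed after adjustment over all genes tested.

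Genes beside *Cwc22* and the copies on chromosome 2 were described in the same way. *Cwc22* lies 27.18 Mb, and the copies 21.13 to 21.17 Mb, from *Wt1*, on the same chromosome. The genotypes differ by design in their *Wt1* alleles. Loss of *Wt1* cannot be told apart here from a difference in chromosome 2 sequence linked to those alleles. Nor can it be told apart from any difference in handling between the libraries of the genotypes. Library identifiers begin with AT throughout *ControlΔEC* and with AU throughout *Wt1KOΔEC*, and what these letters stand for is not stated. The strain on which the floxed allele was made and that of the mice are not given in the sources used here, and the number of *Cwc22* copies in the genomic DNA of these embryos was not measured.

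Of 41 tested protein-coding genes within 2 Mb of any member, edgeR called none and DESeq2 called 1 (0.0736% and 3.68% of all genes). An unadjusted edgeR p under 0.05 was found for 3 of the 41, beside 13.1% of all genes. The median log2 fold change of the 41 was 0.09, and 4 of them did not overlap (19.3% of all genes). The nearest tested protein-coding genes on each side of *Cwc22* were *Sestd1* and *Ube2e3*. *Sestd1* (600.3 kb away) had a log2 fold change of -0.11 (SE 0.19) and *Ube2e3* (921.7 kb away) of -0.34 (SE 0.23). The nearest such genes on each side of the copies were *Fam171b* (72.2 kb away) with 0.22 (SE 1.13) and *Calcrl* (337.6 kb away). *Fam171b* was low, at a mean of 1.62 CPM over all libraries, so its value says little. *Calcrl*, the endothelial receptor for adrenomedullin, was at 91.5, 48.1 and 69.7 CPM in *ControlΔEC* and 95.3, 125 and 141 CPM in *Wt1KOΔEC*, and its log2 fold change was 0.79 (SE 0.25, edgeR adjusted p = 0.252).

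The remaining neighbours with an unadjusted p under 0.05 were likewise at higher values in *Wt1KOΔEC*. *Selenoh*, a nuclear selenoprotein, had a log2 fold change of 0.61 (SE 0.17, edgeR adjusted p = 0.220, DESeq2 adjusted p = 0.0451), and *Fkbp7*, an endoplasmic reticulum prolyl isomerase, of 0.72 (SE 0.23, edgeR adjusted p = 0.261). Among the 26 neighbours with a mean of at least 10 CPM, log2 fold changes ran from -0.43 to 0.79. Over all 41 they ran from -2.39 (*Btbd18*) to 5.04 (*Cerkl*), both with means under 10 CPM and named after their values were seen. The fitted value of *Cwc22*, -2.10, lay below the first range and within the second, and that of a copy, -6.89, lay below both.

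**Figure D5:**
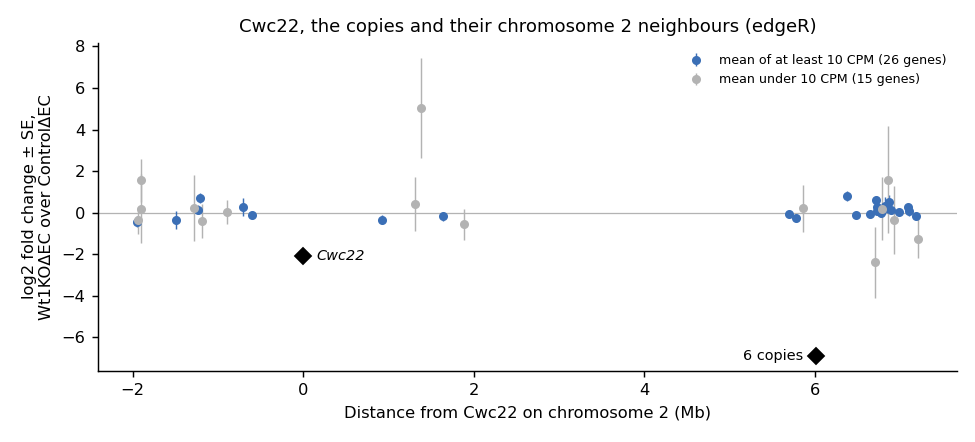
Log2 fold change ± SE (edgeR) of 41 protein-coding neighbours against their distance from Cwc22 in Mb, blue for a mean of at least 10 CPM (26 genes) and grey for lower means (15 genes), with Cwc22 and the copies as black diamonds. The blue points lie between -0.43 and 0.79, above both diamonds, and the grey points between -2.39 and 5.04, with 1 below Cwc22.

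The genes whose level across the 6 libraries was most like that of *Cwc22* were found by Pearson's r of log2 CPM among 8471 genes with a mean of at least 10 CPM. They were *Smg1* (r = 0.998), *Ccnt2* (r = 0.992), *Rnf24* (r = 0.992), *Ppp2r3a* (r = 0.982) and *Cop1* (r = 0.980). For the summed copies they were *Btbd3* (r = 0.997), *Stk35* (r = 0.993), *Iqce* (r = 0.992), *Sgpl1* (r = 0.991) and *Ifi203* (r = 0.991). The lists for *Cwc22* and the copies did not share a gene. With 6 libraries in 2 genotypes, r is set largely by the difference between the genotypes and is given as a description. The sizes of the differences were unlike, with a log2 fold change of -0.44 for *Smg1* beside -2.10 for *Cwc22*, and of -0.19 for *Btbd3* beside -6.89 for a copy. The genes most like *Cwc22* lie on chromosomes 1, 2, 7 and 9, and those most like the copies on chromosomes 1, 2, 5 and 10. The share of all compared genes on each chromosome was not counted, so these positions are given without a reading.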

How the data were processed

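RNA-Seq of mGFP-sorted ECs was analysed in 3 *ControlΔEC* and 3 *Wt1KOΔEC* libraries. The authors amplified cDNA by SMART-seq2, tagmented it with Nextera XT, ran STAR 2.7.8a and deposited RSEM 1.3.0 expected counts per gene (GENCODE vM27) as whole numbers without normalization. The methods name GRCm39 and the submitters' processing notes GRCm38. Genotype and replicate number came from the labels.

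The members and the gene lists were chosen with earlier results of these data known. Genes that reached 10 counts in 2 or more libraries were tested with edgeR 4.0.16 (TMM, quasi-likelihood F test, R 4.3.3), with Benjamini-Hochberg adjustment over all genes tested, and called where the adjusted p was under 0.05 and the log2 fold change beyond 0.58 in either direction. Standard errors are log2 fold changes divided by the root of F. DESeq2 1.42.0 (the tool named in the methods), limma-voom 3.58.1, other normalizations, filters, a replicate block and leaving out each library were alternatives. The tests were tried on simulated data. The depth gives a floor of 0.0608 to 0.119 CPM for a count of 0 (3 counts).

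Named were the 7 members, *Wt1*, the central genes of each list (*Eif4a3*, *Magoh*, *Magohb*, *Rbm8a*, *Casc3*, *Upf1*, *Upf2*, *Cwc15*, *Cwc25*, *Cwc27*, *Dhx16* and *Prpf8*), called list genes, the 3 largest changes per list at a mean of at least 10 CPM, flanking genes, and the 5 genes most like *Cwc22* and most like the copies. *Gm13695* and the overlapping noncoding genes were added after their values were seen. Sequences were read from GRCm39 with GENCODE vM39 and aligned with a local pairwise alignment.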

Additional observations from a re-analysis of the deposited data

How the results depend on the processing

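*Cwc22* was below *ControlΔEC* in *Wt1KOΔEC* under each alternative, with log2 fold changes from -1.82 to -2.46 when 1 library was left out and -2.32 for the members summed before the fit. For a copy the value was -5.72 as a difference of mean log2 CPM with a prior count of 2, -7.18 with 0.5, and between -6.34 and -10.46 when 1 library was left out, the last without *Wt1KOΔEC* replicate 1, the only one of its genotype with counts on the copies. A pair of choices was added after seeing the data: the ratio of mean CPM, also without each library, and the principal transcript as the length of *Cwc22*, in place of the union of exons, under which the ratio to the copies per kb moved from 4.56 to 1.08.

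Over all genes, edgeR called 12, against 296 without the filter, 599 with DESeq2 and 2 to 37 when 1 library was left out (4, 26 and 37 without *ControlΔEC* replicates 1, 2 and 3, and 3, 3 and 2 without *Wt1KOΔEC* replicates 1, 2 and 3). DESeq2 called 1 spliceosome gene (*Srrm2*) and 1 chromosome 2 neighbour (*Selenoh*), where edgeR called 0. No other alternative called a gene of the 5 lists, including neighbours within 1 Mb (24 genes) and 5 Mb (62 genes). The cause of these differences was not tested. With the replicate number as a block, the log2 fold change was -1.99 for *Cwc22* and -7.18 for a copy, 5 genes were called in all and 0 in the lists. Deviations of libraries sharing a number correlated at 0.057, 0.0045 and 0.020, so the numbers were not taken to pair the libraries. Each genotype had 3 libraries, too few for a test of outlying libraries.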
